A study of Mus musculus with 6 samples.

Results

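The cells described here are T cells without Cd8 transcripts that carried at least 1 count of Icos, Izumo1r, Maf or Tnfsf8. They numbered 359 of 15578 kept cells, and 4490 of the kept cells had a Cd3 count. Barcodes were kept from 200 genes upward, with mitochondrial genes giving no more than 20% of counts. A member had at least 1 count over Cd3d, Cd3e and Cd3g, at least 1 count over the 4 markers, and 0 counts over Cd8a and Cd8b1. It also had 0 counts over the regulatory genes Foxp3, Ctla4 and Ikzf2, 0 counts over Cd160, Cxcr6 and Xcl1, and at most 1 count over the B cell genes Cd79a, Cd79b and Ms4a1. Since measured counts chose these cells, the 18 genes of the rule are described and not tested. The working name for the group was activated non-regulatory CD8-negative T cells. The data bore out only part of that name: genes of resting T cells were not called lower than in other T cells, and Cd69 was not called higher. The cells are therefore called marker-positive T cells.

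The cells came from 6 libraries of unfragmented 10x Genomics cDNA read on a Nanopore PromethION, all labelled as spleen of 10-week-old female mice, with C57BL/6 named for the series. Each of 3 capture protocols had 2 libraries: the 3′ kit in its version v3.1, the unaltered 5′ kit (version v2, standard 5′), and that 5′ kit with 1 µl of 10 mM dNTP added at reverse transcription and at cDNA amplification and longer extension (modified 5′). Reverse transcription was extended for 2 hours in the modified protocol and for 45 minutes in the standard one, and amplification steps for 3 minutes and 1 minute. No treatment or allele is named for any library. The protocol text of the replicate 2 libraries describes islet isolation and insulin depletion, although their tissue label is spleen. Among the marker-positive cells of all libraries the pancreas genes of a marker list summed to 2 counts. Nothing in the labels says whether replicates came from separate mice, so each p-value reflects only how these libraries vary, which may be technical.

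Depth was low. Library totals ran from 723341 to 2627253 counts, and kept cells held a median of 332 to 606 counts per library. Marker-positive cells numbered 42 and 78 in the 3′ replicates 1 and 2, 20 and 100 in the standard 5′ libraries, and 37 and 82 in the modified 5′ libraries. Their median depth was 300 counts in the standard 5′ replicate 1 library and 524 to 714 in the other libraries. The standard 5′ replicate 1 library therefore added the fewest cells and the fewest counts, 6792 over its 20 cells. Cell barcodes shared between 2 libraries numbered 0 to 16 per pair, and no shared barcode was marker-positive in both.

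Activated CD4 T cells leave the resting state by taking up costimulatory and adhesion receptors and losing part of the lymph node homing programme. Icos is a costimulatory receptor that appears after T cell receptor stimulation. Izumo1r encodes folate receptor 4, a surface protein found on regulatory T cells and on some helper T cells. Maf is a transcription factor of follicular and cytokine-producing helper T cells, and Tnfsf8 encodes the ligand of CD30. In the spleen such cells sit among a much larger pool of naive T cells, which are marked by Ccr7, Lef1 and Tcf7. On mm10, per GENCODE M21, Icos lies on chromosome 1 from 60977927 to 61000320, Izumo1r on chromosome 9 from 14885814 to 14903949, Maf on chromosome 8 from 115682942 to 115707794 and Tnfsf8 on chromosome 4 from 63831308 to 63861347. All are protein-coding, and each span is the whole gene, exons and introns together.

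Izumo1r was the marker that most often placed a cell in the group. It was counted in 207 of the 359 cells, or 57.7%. Tnfsf8 was counted in 96 cells (26.7%), Icos in 67 (18.7%) and Maf in 25 (6.96%). Most cells entered on a single marker: 182 carried Izumo1r alone, 86 Tnfsf8 alone, 51 Icos alone and 8 Maf alone. The most frequent pair was Izumo1r with Maf, in 9 cells, followed by Icos with Izumo1r in 7, and 1 cell carried all 4 markers. Altogether 278 cells had exactly 1 marker count, 55 had 2 and the remaining cells had 3 to 9.

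The mixture of markers differed from library to library. Izumo1r was present in 33.3% of the marker-positive cells of the 3′ replicate 1 library (95% exact binomial interval 19.6 to 49.5%) and in 55.0 to 70.0% of those in the other libraries. Icos was present in 31.0% of the cells in the 3′ replicate 1 library and 26.0% in the standard 5′ replicate 2 library. It was lowest, at 5.00% and 5.41%, in the standard and modified 5′ replicate 1 libraries. Tnfsf8 ranged from 15.0% in the standard 5′ replicate 1 library to 40.5% in the 3′ replicate 1 library. Maf stayed between 2.38% and 10.0%. Izumo1r ran from 33.3 to 61.5% within the 3′ protocol alone, so no order of protocols can be read from these shares. All such intervals cover counting error only.

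**Figure D1:**
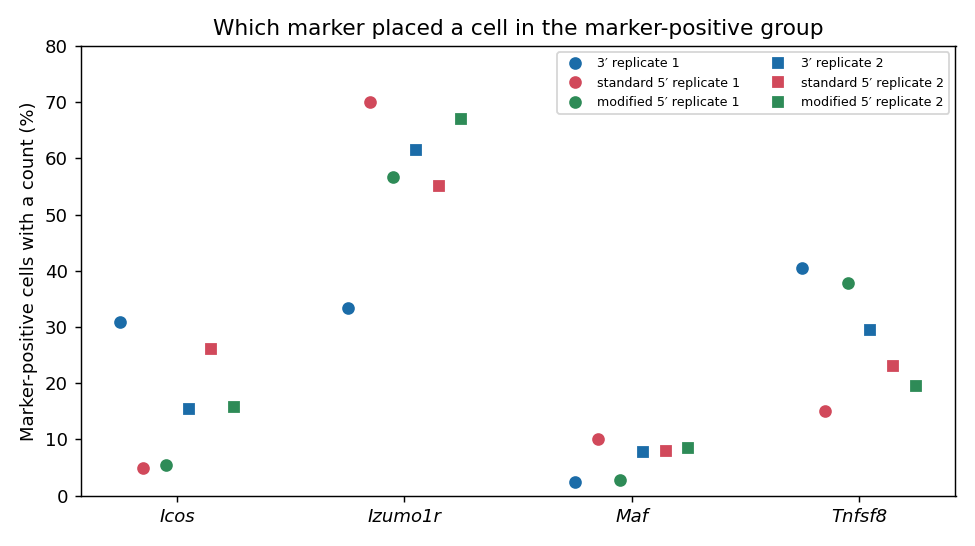
Share of marker-positive cells with a count of each marker (y axis, %), for the 4 markers (x axis), 1 point per library, colour for protocol and shape for replicate. Izumo1r leads in 5 of the libraries, from 55.0 to 70.0%, while the 3′ replicate 1 library has 33.3%, below its Tnfsf8 share of 40.5%.

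The rule fixes the marker shares above, since each cell needed a marker count. Over all 2280 CD8-negative T cells that met the rest of the rule, Izumo1r was counted in 9.08%, Tnfsf8 in 4.21%, Icos in 2.94% and Maf in 1.1%. Among 8287 B cells chosen by rule, Icos was counted in 2, Tnfsf8 in 7, Maf in 19 and Izumo1r in 20 cells, at most 0.241%. Among 1570 T cells with a Cd8 count, Maf was counted in 2 cells, Icos in 38 (2.42%), Izumo1r in 42 (2.68%) and Tnfsf8 in 73 (4.65%). The shares of Tnfsf8 and Icos there lay near those over all CD8-negative cells, while those of Izumo1r and Maf lay below them. Unlike the CD8-negative cells, the T cells with a Cd8 count could carry counts of the regulatory genes or of Cd160, Cxcr6 and Xcl1. Among the 270 regulatory T cells described further on, Izumo1r was counted in 33.7%, Icos in 13.0%, Maf in 8.15% and Tnfsf8 in 3.70%. These differences were not tested. In the 3′ replicate 1 library, for example, median depths were 714 counts in the marker-positive cells, 773 in the T cells with a Cd8 count and 560 in the B cells. Many cells lay near an edge of the rule. With a marker count present, 126 cells were left out by a Cd8 count alone, 130 by a regulatory count alone, 40 by Cd160, Cxcr6 or Xcl1 alone and 10 by B cell counts alone. Just inside, 75 cells had a single Cd3 count and a single marker count, and 9 had 1 B cell count.

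Cd4, which the rule did not use, was counted in 56 of the 359 cells (15.6%) and in 10 of the 1570 T cells with a Cd8 count (0.637%). To compare it with other CD8-negative T cells at equal depth, each cell was thinned to 300 counts, and the 1921 cells that met the same rule with 0 marker counts served as the marker-negative group. Cd4 was then counted in 7.14% and 8.22% of marker-positive cells in the 3′ replicates 1 and 2, against 7.37% and 5.96% of marker-negative cells. In the standard 5′ replicates the shares were 10.0% and 7.14% against 1.54% and 5.29%, and in the modified 5′ replicates 8.11% and 13.6% against 6.16% and 6.93%. The share was higher in marker-positive cells in 5 of 6 libraries, by a mean of 3.49 ± 3.32 percentage points (SD, n = 6), but an exact two-sided sign-flip permutation test gave p = 0.0625. Without thinning the mean difference was 5.65 points, with 6 of 6 libraries higher (exact p = 0.03125, the smallest 6 libraries can give). Thinning left out 10 of the 20 marker-positive cells and 78 of the 143 marker-negative cells of the standard 5′ replicate 1 library.

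**Figure D2:**
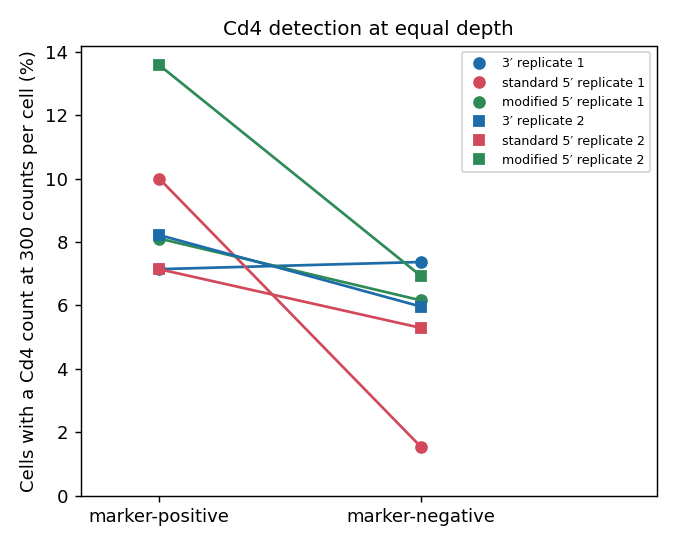
Share of cells with a Cd4 count after thinning to 300 counts per cell (y axis, %), in marker-positive and marker-negative T cells (x axis), 1 line per library. The line falls in 5 of 6 libraries and is nearly flat in the 3′ replicate 1 library, at 7.14% and 7.37%.

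Against the marker-negative T cells of the same library, the marker-positive cells carried more transcript of Itgb1, S100a6, S100a11 and Tnfrsf4, and less of the chemokine gene Ccl5 and the surface protein gene Ly6c2. Counts were summed per library and population and tested with edgeR, with the library as a block. At an adjusted p of at most 0.05, 42 of the 1601 genes in the test differed (2.62%). Transcripts of 20 genes (1.25%) were higher and those of 22 (1.37%) were lower. The genes that differed included 11 of the 64 ribosomal protein genes tested, all lower. Marker-positive cells were slightly deeper in each library, with medians of 714 and 673 counts in the 3′ replicate 1 library and 607 and 596 in the modified 5′ replicate 2 library. The part of depth in these differences was not tested beyond the thinned fits. Only Itgb1 still passed when each gene was counted at most once per cell, a setting chosen after seeing the data which also leaves fewer counts to test. The count was 2 without the library block, 11 without the standard 5′ replicate 2 library, 27 without the 3′ replicate 2 library and 14 in the replicate 1 libraries alone.

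Itgb1, which encodes the integrin beta 1 chain of adhesion receptors on antigen-experienced T cells, lies on chromosome 8 from 128685654 to 128733200. In the 3′ replicates 1 and 2 it stood at 250 and 417 CPM (counts scaled to a population sum of 1000000) in marker-positive cells and at 93.6 and 79.5 CPM in marker-negative cells. In the standard 5′ replicates it stood at 736 and 348 against 109 and 111 CPM, and in the modified 5′ replicates at 185 and 368 against 120 and 112 CPM. Every marker-positive value exceeded every marker-negative value. The log2 fold change was 1.70 ± 0.23 (SE; edgeR adjusted p = 5.15e-07), and with each gene counted once per cell it was 1.36 (adjusted p = 0.0414). In the replicate 1 libraries alone it was 1.32 (adjusted p = 0.321). Itgb1 was counted in 45 of the marker-positive cells, with at most 8 counts in a cell.

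S100a6, a calcium-binding protein gene high in memory T cells, was at 250 and 104 CPM in the 3′ libraries, 442 and 393 in the standard 5′ libraries and 369 and 258 in the modified 5′ libraries. Its marker-negative values were 39.4 and 87.4, 87.3 and 111, and 141 and 171 CPM in the same order. It was higher in 6 of 6 libraries, though the 2 ranges overlapped (log2 1.27 ± 0.26 SE, adjusted p = 0.000868). Lgals1, which encodes galectin 1, rose by log2 0.82 ± 0.19 (adjusted p = 0.00385), higher in 5 of 6 libraries, but 23 of its 148 counts came from 1 cell. S100a11 rose by log2 0.92 ± 0.21 (adjusted p = 0.0032), and Srgn, the serglycin of secretory granules, by 0.83 ± 0.14 (adjusted p = 3.72e-05), higher in 6 of 6 libraries.

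Tnfrsf4 encodes OX40, a costimulatory receptor of activated and regulatory T cells, and lies on chromosome 4 from 156013843 to 156016612. It was at 27.8 and 41.7 CPM in the 3′ replicates, 294 and 136 in the standard 5′ replicates and 46.1 and 184 in the modified 5′ replicates. In marker-negative cells it did not exceed 19.3 CPM in any library, so the groups did not overlap. These values rest on 25 counts in 17 marker-positive cells and 14 counts in 13 marker-negative cells (log2 2.72 ± 0.80 SE, adjusted p = 0.0463). Pou2f2, which encodes the transcription factor Oct-2, was at 55.6 to 209 CPM in marker-positive cells and 26.8 to 53.0 CPM in the others (log2 1.73 ± 0.48, adjusted p = 0.0293). Tbc1d4, a regulator of glucose transporter traffic, rose by log2 1.87 ± 0.55 (adjusted p = 0.0468). It too was low, with 30 counts in 27 cells. Neither Pou2f2 nor Tbc1d4 had more than 2 counts in a marker-positive cell.

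Ly6c2, a surface protein gene of memory-type CD8 T cells and monocytes, was lower in 6 of 6 libraries. It stood at 27.8 and 292 CPM in the 3′ marker-positive cells, 442 and 90.7 in the standard 5′ cells and 46.1 and 129 in the modified 5′ cells. The marker-negative values were 197 and 461, 590 and 356, and 221 and 435 CPM (log2 -1.45 ± 0.24 SE, adjusted p = 3.72e-05). Ccl5, a chemokine of effector and memory CD8 T cells, was lower in 5 of 6 libraries, with 41.7 to 1031 against 687 to 1362 CPM (log2 -1.24 ± 0.18, adjusted p = 3.58e-06). In T cells with a Cd8 count, Ccl5 stood at 827 to 1785 CPM and Ly6c2 at 503 to 1517 CPM. CD8 T cells whose Cd8 transcripts were missed cannot be told apart from other cells in the marker-negative group. Neither gene had enough counts to be tested when only cells with a Cd4 count were compared. With each gene counted once per cell, Ly6c2 stood at -0.99 (adjusted p = 0.251) and Ccl5 at -0.67 (adjusted p = 0.409).

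**Figure D3:**
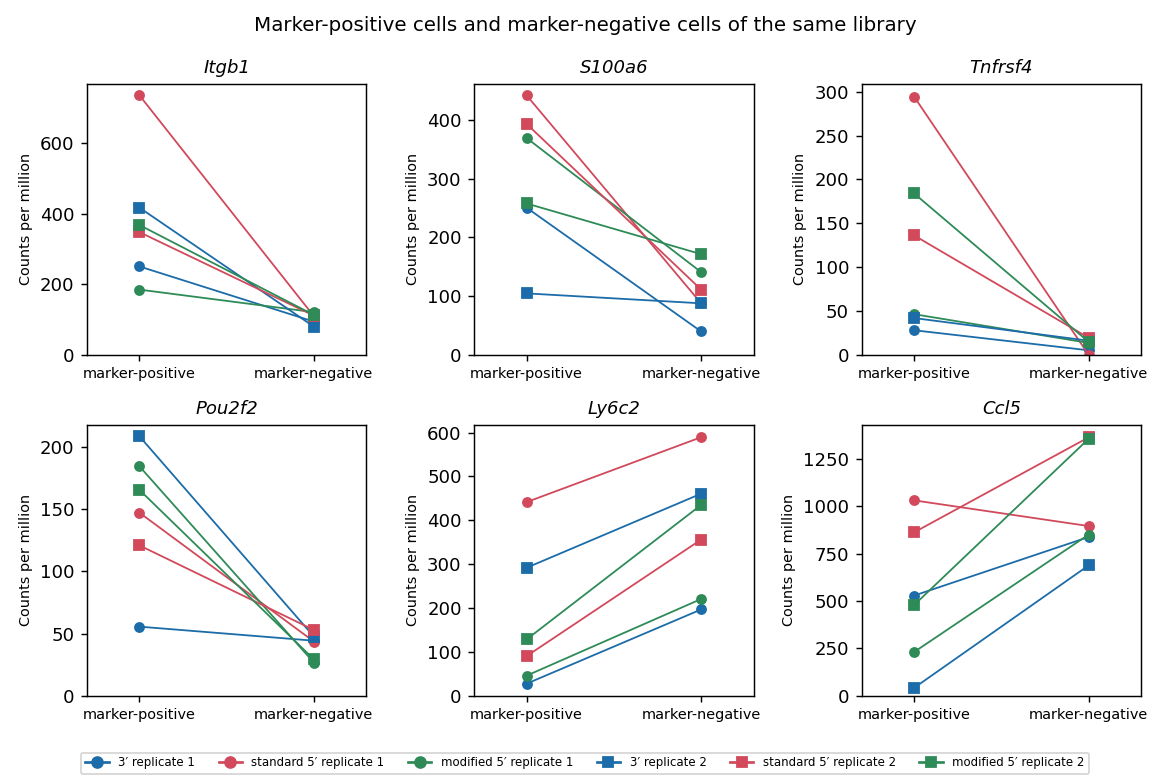
CPM (y axes, counts scaled to the population sum) of 6 genes in marker-positive and marker-negative T cells (x axes), 1 line per library, from counts summed over cells. Itgb1, S100a6, Tnfrsf4 and Pou2f2 fall from left to right in 6 of 6 libraries, Ly6c2 rises in 6 of 6 and Ccl5 in 5 of 6.

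The list of activation and memory genes moved in both directions. Of 22 genes tested, 4 passed as higher (Itgb1, S100a6, S100a11, Lgals1) and 1 as lower (Tmsb10, a thymosin), with a median log2 change of 0.38 against -0.03 over all genes tested. S100a4 stood at log2 1.26 ± 0.40 (adjusted p = 0.077). The early activation gene Cd69 stood at -0.53 ± 0.27 (adjusted p = 0.414) and was lower in 6 of 6 libraries. Cd44, the classical antigen-experience marker, was too sparse to test, with 12 counts in 10 marker-positive cells and 44 counts in 42 marker-negative cells. The quiescence list gave no call: 0 of 17 genes passed, 16 of them had a negative change and the median was -0.32. At an unadjusted p under 0.05 edgeR gave 7 of these genes and DESeq2 5, of which 0 passed adjustment. Lef1 stood at -0.32 ± 0.15 (adjusted p = 0.363) and Tcf7 at 0.02 ± 0.16 (adjusted p = 0.985). The naive programme was therefore still counted in the marker-positive cells, at a summed 4172 to 7120 CPM per library against 5328 to 7682 CPM.

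The 81 cells with at least 2 marker counts stood further from the marker-negative cells. In the planned comparison of those cells, 84 of 916 genes passed (9.17%), 24 higher (2.62%) and 60 lower (6.55%). Of 10 quiescence genes tested, 5 passed as lower and 0 as higher, with a median of -1.08 against -0.11 over all genes tested. Of the cell cycle genes, 9 of 10 passed as higher, with a median of 2.15. Among them were Mki67 (3.09 ± 1.00, edgeR adjusted p = 0.0286), Top2a (3.37 ± 0.86, adjusted p = 0.00291) and Birc5 (3.68 ± 0.85, adjusted p = 0.000791). These calls rest on few counts: over all 359 marker-positive cells Mki67 had 16, Top2a 27 and Birc5 26. Whether a few cells carried most of them was not tested. Erythroid genes passed as lower in 3 of 3, with a median of -4.32, and B cell genes in 2 of 3, with a median of -1.18. The part of these other cell types and of cycling cells in the quiescence change was not tested. Satb1, a chromatin organiser of naive T cells, was lower by log2 -1.83 ± 0.45 (adjusted p = 0.00228) in 6 of 6 libraries, as was Foxp1, a quiescence factor (-1.77 ± 0.47, adjusted p = 0.0046). Lef1 (-1.14 ± 0.33, adjusted p = 0.0109) was lower in 5 of 6. In the standard 5′ replicate 1 library the cells with at least 2 marker counts numbered 2 and held 1259 counts. A lower value of a single gene in that library therefore says little. Itgb1 stood at 2.30 ± 0.39 (adjusted p = 6.54e-07) and Tnfrsf4 at 3.58 ± 0.91 (adjusted p = 0.00289). Ccl5 stood at -4.32 ± 0.50 (adjusted p = 4.4e-15), with 4 counts left in these cells.

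The cells with 2 or more marker counts numbered only 2 to 26 per library, and their median depth was 627 counts against 561 in the 278 cells with a single marker count. Pooled over libraries, the quiescence list summed to 3617 CPM in the former and 5943 CPM in the latter. The activation and memory list summed to 15885 and 13687 CPM, the cell cycle list to 7329 and 3030 CPM and the natural killer list to 582 and 945 CPM. Cd4 was counted in 19.8% and 14.4% of the cells. The difference between these subsets was not tested.

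Split by marker and pooled over libraries, the 25 cells with Maf had a quiescence sum of 2720 CPM and a follicular sum of 2127 CPM. The 96 cells with Tnfsf8 stood at 6235 and 1257 CPM, Izumo1r cells at 5110 and 1367 CPM and Icos cells at 4287 and 1435 CPM. The order of the quiescence sums did not hold in each library. In the 3′ replicate 1 library it was 8234 CPM in Izumo1r cells, 7582 in Tnfsf8 cells, 7018 in the single Maf cell and 5863 in Icos cells. In the 3′ replicate 2 library it was 5726 CPM in Izumo1r cells, 5086 in Icos cells, 4903 in Maf cells and 4886 in Tnfsf8 cells. The follicular sum of Tnfsf8 cells in that library, 1546 CPM, lay above those of Icos cells, 1526 CPM, and Izumo1r cells, 1423 CPM. Cd4 was counted in 23.9% of Icos cells, 5 of the 25 Maf cells, 15.9% of Izumo1r cells and 15.6% of Tnfsf8 cells. Libraries add unequal numbers of cells to each pooled sum, a cell with 2 markers counts in both groups, and they are descriptions without a test.

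**Figure D4:**
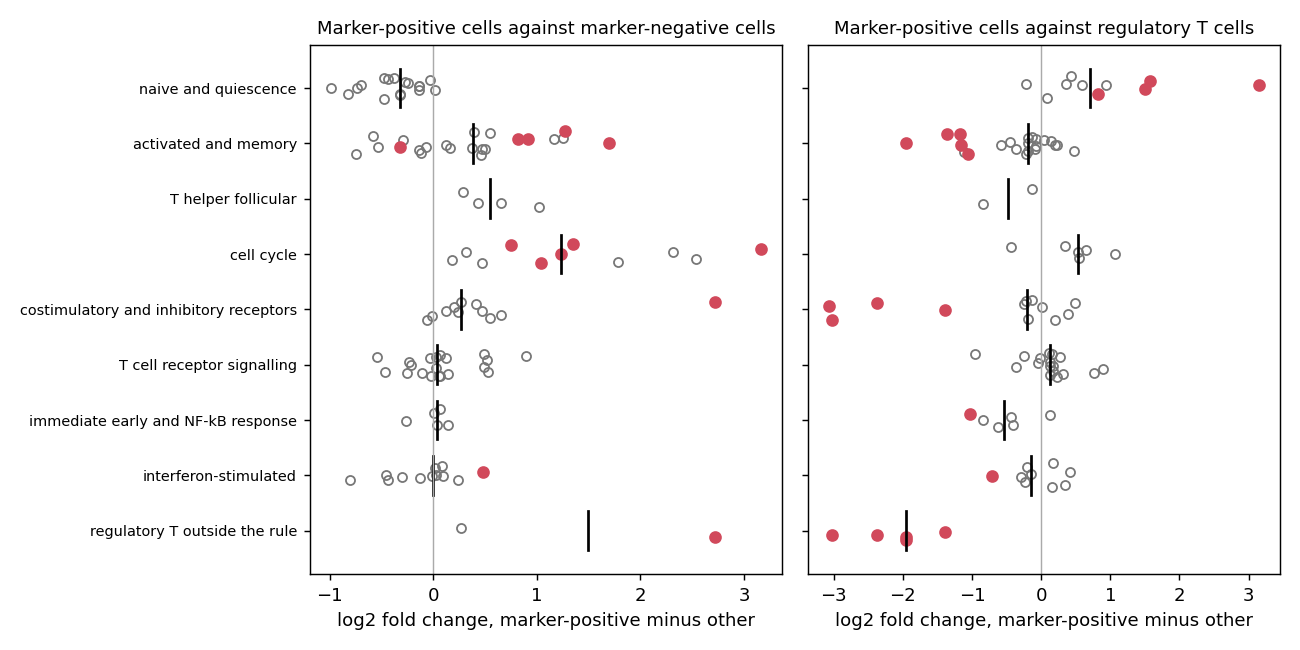
Log2 fold change of the tested genes of 9 lists (x axes) in marker-positive cells against marker-negative cells (left) and regulatory T cells (right), 1 point per gene, filled where the adjusted p was at most 0.05, with the list median as a bar. Quiescence genes are unfilled at left, with a median of -0.32, and 4 of 10 are filled and higher at right.

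Genes of helper lineages were mostly at the edge of detection. Only 4 of 18 follicular helper genes could be tested and 0 passed by edgeR or DESeq2, while 2 had an unadjusted p under 0.05 in each. Tox, a transcription factor of chronically stimulated and follicular T cells, was higher in 6 of 6 libraries (log2 1.02 ± 0.39, adjusted p = 0.195). Slamf6, a receptor of the SLAM family, stood at 0.65 ± 0.21 (adjusted p = 0.0812). Pdcd1, which encodes the inhibitory receptor PD-1, had 15 counts in 10 marker-positive cells and 9 counts in 9 of the far more numerous marker-negative cells, or 64.4 and 8.47 CPM when pooled. Il21, the follicular cytokine gene, had 5 and 4 counts, Cxcr5 3 and 10 and Bcl6 3 and 13. Ifng had 3 and 4 counts, Il4 1 and 3, and Il2 3 and 4. Cxcr3, a chemokine receptor of T helper 1 cells, was higher in 6 of 6 libraries without enough counts to be tested, at 116 and 52.7 CPM pooled. The T helper 1 list as a whole did not go that way. Of its 2 tested genes Ccl5 passed as lower, and its sum ran from 646 to 1767 CPM against 1225 to 1961 CPM. Ccl5 gave 116 of the 273 counts of that list in marker-positive cells and 1071 of 1710 in marker-negative cells.

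Of 11 cell cycle genes tested, 5 were higher and 0 lower, with a median of 1.23: Ube2c, Stmn1, Hmgb2, Tyms and H2afz, which act in mitosis, microtubule turnover, chromatin and nucleotide synthesis. Few cells carried them. Ube2c stood at log2 3.16 ± 0.67 (adjusted p = 0.00166) from 46 counts in 9 cells, 16 of them in 1 cell. Hmgb2 stood at 1.23 ± 0.19 (adjusted p = 1.19e-05), with 34 of 149 counts in 1 cell, and at 0.37 (adjusted p = 0.631) with each gene counted once per cell. Its values were 834 and 334 CPM in the 3′ libraries, 1472 and 1134 in the standard 5′ libraries and 185 and 258 in the modified 5′ libraries. In marker-negative cells Hmgb2 ran from 159 to 349 CPM, so the modified 5′ values lay inside the other range. At 300 counts per cell, 21 of 341 marker-positive cells (6.16%) had at least 3 cell cycle counts, against 57 of 1772 marker-negative cells (3.22%) and 15 of 258 regulatory cells (5.81%). Cells with at least 2000 counts numbered 2 in the 3′ replicate 1 library, where they held 16.5% of marker-positive counts, and 4 in the standard 5′ replicate 2 library, where they held 18.9%.

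Markers of other cell types varied by library. Of the B cell list outside the rule, 0 of 4 tested genes passed (1 at an unadjusted p under 0.05 by edgeR, 0 by DESeq2), and its sum ran from 589 to 2024 CPM in marker-positive and from 957 to 1714 CPM in marker-negative cells. The monocyte and macrophage list gave 1 call of 3, Ly6c2, with sums of 362 to 1325 and 696 to 1092 CPM. C1qa was at 0 and Lyz2 and Csf1r had 1 count each. Natural killer genes gave 0 calls of 2 (1 at an unadjusted p under 0.05 by edgeR, 0 by DESeq2), with sums of 369 to 4711 and 680 to 1092 CPM. The highest value came from the standard 5′ replicate 1 library, whose 20 marker-positive cells held 6792 counts. At 300 counts per cell, 8 of 341 marker-positive cells (2.35%) had at least 3 natural killer counts, against 38 of 1772 marker-negative cells (2.14%). Whether 1 cell carried most of the highest value was not tested. Ncr1 had 1 count and Klrb1c 3. Erythroid genes gave 0 calls of 4 (1 at an unadjusted p under 0.05 by each tool), with sums of 30.2 to 23557 CPM in marker-positive and 19.3 to 17973 CPM in marker-negative cells. Of the 590 Hbb-bs counts, 547 sat in 1 marker-positive cell of the 3′ replicate 1 library. The part of these cells in the differences above was not tested.

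Regulatory T cells, the population next to the marker-positive cells, were taken by the same rule with at least 1 count of Foxp3, Ctla4 or Ikzf2 and no condition on the 4 markers. They numbered 270, with 8 in the standard 5′ replicate 1 library and 32 to 83 in the others. Against them the marker-positive cells were higher in genes of resting T cells and lower in receptors of regulatory T cells. Of 1022 genes tested with edgeR, 46 passed (4.5%), 26 higher (2.54%) and 20 lower (1.96%). The genes that were higher included 13 of the 57 ribosomal protein genes tested. Marker genes chose the marker-positive cells and regulatory genes the other population, so those genes were outside the test. A single count of Ctla4 without Foxp3 was enough for the regulatory group, so it need not hold regulatory T cells only. Of its 270 cells, 130 also had a count of the 4 markers and were kept out of the marker-positive cells by a regulatory count alone. The part of this choice in the differences was not tested. In the replicate 1 libraries alone 3 genes passed, in the replicate 2 libraries alone 29, without the modified 5′ replicate 2 library 18 and without the standard 5′ replicate 2 library 25. Without the library block 0 passed, with 19 higher and 16 lower at an unadjusted p under 0.05.

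Dapl1, a gene high in naive T cells, on chromosome 2 from 59484653 to 59505020, was counted in 43 marker-positive and 6 regulatory cells. Marker-positive cells had 501 and 355 CPM in the 3′ libraries, 147 and 197 in the standard 5′ libraries and 369 and 258 in the modified 5′ libraries, and regulatory cells did not exceed 60.2 CPM. The groups did not overlap (log2 3.15 ± 0.47, adjusted p = 1.7e-05). In the standard 5′ replicate 1 library the 8 regulatory cells held 2947 counts, so a single count there came to 339 CPM. Regulatory Dapl1 was therefore at 0 counts in that library, and its 147 CPM in marker-positive cells was 1 count. Lef1, a transcription factor of naive and memory precursor T cells, was at 442 to 784 CPM against 0 to 334 CPM (log2 1.58 ± 0.27, adjusted p = 0.000128), again without overlap. Ccr7, the chemokine receptor for lymph node entry, was higher in 6 of 6 libraries (1.51 ± 0.35, adjusted p = 0.00533) and Tcf7 in 5 of 6 (0.82 ± 0.24, adjusted p = 0.0309). In total 4 of 10 quiescence genes passed as higher and 0 as lower, with a median of 0.71 against 0.03 over all genes tested.

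Lower in the marker-positive cells were all 5 tested genes of the regulatory list, each a surface receptor known from regulatory T cells, with a median of -1.96. Nrp1, which encodes neuropilin 1, stood at 55.6 and 62.6 CPM in the 3′ libraries, 0 and 45.4 in the standard 5′ libraries and 0 and 73.6 in the modified 5′ libraries. Regulatory cells stood at 95.3 to 339 CPM, and the groups did not overlap (log2 -1.96 ± 0.43, adjusted p = 0.00329). These Nrp1 values rest on 12 marker-positive and 39 regulatory counts. The 339 CPM, in the standard 5′ replicate 1 library, was 1 count. Tnfrsf4 stood at -2.37 ± 0.35 (adjusted p = 1.7e-05), lower in 5 of 6 libraries; the 8 regulatory cells of the standard 5′ replicate 1 library held none of it. Tnfrsf4 thus lay between the populations, above the marker-negative cells and below the regulatory cells. S100a6 did likewise, at -1.06 ± 0.27 (adjusted p = 0.0128) against regulatory cells. Il2ra, the high-affinity interleukin 2 receptor chain, stood at -1.96 ± 0.48, Tnfrsf9, which encodes 4-1BB, at -3.02 ± 0.49, and Tnfrsf18, which encodes GITR, at -1.38 ± 0.36. Both comparisons use the same marker-positive sums, so their changes are not independent. The whole regulatory list, Tnfrsf4 included, summed to 139 to 883 CPM in marker-positive cells. Its sums were 143 to 228 CPM in marker-negative and 679 to 3070 CPM in regulatory cells. The part of regulatory T cells with missed Foxp3, Ctla4 and Ikzf2 transcripts in the marker-positive cells was not tested.

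The inhibitory receptor gene Tigit was listed in 5 marker-positive cells with 1 count each and in 24 regulatory cells with 36 counts (log2 -3.06 ± 0.54, adjusted p = 0.000145). The delta chain constant gene Trdc, of gamma-delta T cells, was lower in 6 of 6 libraries, with 14 counts in 6 marker-positive cells and 51 counts in 15 regulatory cells (-2.32 ± 0.44, adjusted p = 0.000478). The gamma-delta list summed to 0 to 167 CPM in marker-positive and 253 to 1144 CPM in regulatory cells. The B cell list summed to 589 to 2024 and 1278 to 26544 CPM, the last in the 3′ replicate 2 library, and Ighm passed as lower. The part of these other cell types in the difference was not tested. The erythroid genes Hba-a2, Hbb-bs and Hbb-bt passed as higher on counts that sat mostly in 1 cell.

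**Figure D5:**
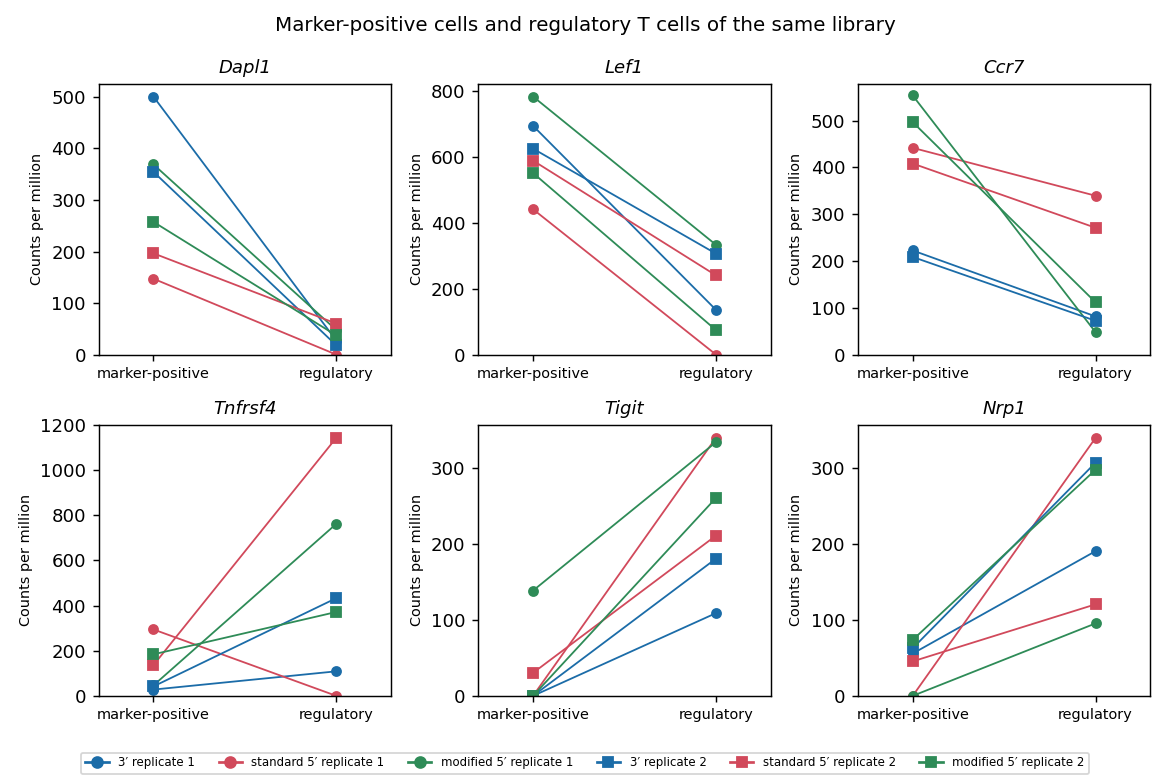
CPM (y axes, counts scaled to the population sum) of 6 genes in marker-positive and regulatory T cells (x axes), 1 line per library, from counts summed over cells. Dapl1, Lef1 and Ccr7 fall from left to right in 6 of 6 libraries, Tigit and Nrp1 rise in 6 of 6 and Tnfrsf4 in 5 of 6.

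The libraries differ by capture protocol. As a share of cells with a Cd3 count, the marker-positive cells made up 6.69% and 6.82% in the 3′ replicates 1 and 2, 7.19% and 10.1% in the standard 5′ replicates and 6.53% and 9.30% in the modified 5′ replicates. The means were 6.75 ± 0.09, 8.64 ± 2.05 and 7.91 ± 1.96% (SD, n = 2 each). Both standard 5′ shares lay above both 3′ shares, while the modified 5′ shares overlapped with each of the other protocols. Exact two-sided permutation p-values were 0.333 (standard 5′ against 3′), 0.667 (modified against standard 5′) and 1.0 (modified 5′ against 3′). Each was 1.0 after adjustment over the 3 pairs. The smallest p that 2 against 2 allows is 0.333, so the test could not call any pair.

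Within the marker-positive cells, transcripts separated the 3′ libraries from both 5′ protocols. Since Izumo1r levels differed by protocol, the protocols may not have placed the same kinds of cells in the group, which was not tested. Of 820 genes tested with edgeR on the 6 library sums, 75 (9.15%) differed between standard 5′ and 3′, 33 of them higher in 5′ (4.02%) and 42 lower (5.12%). Between modified 5′ and 3′ 66 differed (8.05%), 30 higher (3.66%) and 36 lower (4.39%). Between modified and standard 5′ 6 differed (0.732%), 4 higher (0.488%) and 2 lower (0.244%). DESeq2 gave 5, 3 and 0 genes for these contrasts, the last with 18 higher and 6 lower at an unadjusted p under 0.05. Without the standard 5′ replicate 2 library edgeR gave 4 genes between standard 5′ and 3′. Trac, the constant gene of the T cell receptor alpha chain, was at 667 and 897 CPM in the 3′ libraries, 2356 and 2192 in the standard 5′ libraries and 2122 and 1637 in the modified 5′ libraries. It was higher in standard 5′ than in 3′ by log2 1.27 ± 0.37 (adjusted p = 0.0125) and in modified 5′ by 1.09 ± 0.36 (adjusted p = 0.0386). Between the 5′ protocols it stood at -0.18 ± 0.36 (adjusted p = 0.978). Thy1, a T cell surface glycoprotein gene, was higher in standard 5′ than in 3′, at 442 and 635 against 111 and 167 CPM (1.86 ± 0.51, adjusted p = 0.00741).

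Other T cell genes were lower in the 5′ libraries. Ptprcap, which encodes a CD45-associated protein, was at 834 and 1252 CPM in the 3′ libraries, 147 and 166 in standard 5′ and 323 and 147 in modified 5′ (log2 -2.86 ± 0.49 and -2.49 ± 0.45 against 3′, adjusted p = 6.72e-07 and 4.03e-06). Satb1 was at 640 and 501 CPM in 3′ and 185 and 166 in modified 5′ (-1.84 ± 0.48, adjusted p = 0.00569), and Foxp1 was lower in both 5′ protocols. Some genes that set the marker-positive cells apart also differed by protocol. Lgals1 (1.54 ± 0.42, adjusted p = 0.00729) and Ccl5 (1.55 ± 0.44, adjusted p = 0.0111) were higher in standard 5′ than in 3′. Tmsb10 was higher (0.96 ± 0.25, adjusted p = 0.00506) and Hmgb2 lower (-1.41 ± 0.47, adjusted p = 0.0403) in modified 5′ than in 3′. Itgb1 stood at 0.03 ± 0.48 and -0.28 ± 0.47 against 3′ (adjusted p = 0.99 and 0.772). Between the 5′ protocols, the genes that were higher in the modified one were 3 ribosomal protein genes and AY036118, and Hmgb2 (-2.27 ± 0.45, adjusted p = 0.00047) and Nkg7, a cytotoxic granule gene (-1.76 ± 0.48, adjusted p = 0.0393), passed as lower. Hmgb2 had 34 counts and Nkg7 13 counts in a single cell. With each gene counted once per cell, 0 genes passed between the 5′ protocols by edgeR, with 21 higher and 15 lower at an unadjusted p under 0.05.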

How the data were processed

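For each of 6 libraries the authors deposited whole-number counts without normalization, with gene symbols against cell barcodes. The build mm10, and Seurat without role or version for the replicate 2 libraries, are named per the submitters' processing notes. Not given in the sources used here were the aligner, the annotation, the use of strand and whether reads were collapsed to molecules, so overlapping genes and near-identical copies may share counts. No doublet caller was run, and doublets remain.

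Cells were chosen and lists assembled with earlier results of these data known. Counts were summed per library and population and tested with edgeR 4.0.16 (quasi-likelihood, TMM factors, filterByExpr, Benjamini-Hochberg adjustment at 0.05); population fits had the library as a block, and protocol fits had the protocol only. DESeq2 1.42.0 was an alternative. Thinning drew 300 counts per cell without replacement. Shares have exact binomial intervals, and shares were compared with exact permutation tests. Named genes passed the test at a mean of at least 50 CPM, in at least 5 of 6 libraries (for protocols, without overlap), up to 12 per direction. Ribosomal and receptor segment genes were counted but not ranked, and listed genes could be named. Srgn was named outside this rule, and its values under the alternatives are not reported here. Some listed genes are not reported here by name. On simulated data for the marker-negative comparison (1748 genes tested), 63 of 100 genes changed by log2 1 and 96 of 100 changed by log2 2 were recovered. For standard 5′ against 3′ (804 genes tested), 9 and 52 of 100 were recovered, so a protocol difference that did not pass says little. Both simulations changed only genes at 100 CPM or more, with a fixed spread and no clumping of counts in single cells. Recovery of sparser or clumped genes was not simulated. Alternatives covered normalization, filters, the rule's thresholds, thinning and each library left out.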

Additional observations from a re-analysis of the deposited data

Results flagged for a closer look

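Barcodes with fewer than 200 genes were left out before the rule was applied. Of these 4457 barcodes, 13 met the rest of the rule: 3 in the standard 5′ replicate 1 library, 3 in the 3′ replicate 2 library, 5 in the standard 5′ replicate 2 library and 2 in the modified 5′ replicate 2 library. They came to attention because the signal lay in barcodes that no comparison used. Their number is small beside the 359 cells described.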

How the results depend on the processing

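Against marker-negative cells 42 genes passed. The count was 18 with DESeq2, 105 without the filter on low counts, 84 with at least 2 marker counts, 20 at 300 genes per barcode, 13 in cells with a Cd4 count, 17 with the rule applied after thinning and 2 without the library term. Alternatives chosen after seeing the data gave 1 with each gene counted once per cell, 9 with cells thinned to 300 counts after the rule, 14 in the replicate 1 libraries and 46 in the replicate 2 libraries. Leaving out 1 library gave 11 to 52. Against regulatory cells 46 passed. The count was 28 with DESeq2, 28 without the filter, 11 with at least 2 marker counts, 2 with the rule after thinning and 0 without the library term. The added alternatives gave 8, 16, 3 and 29 in the same order, and leaving out 1 library gave 18 to 47. The Cd4-only fit against regulatory cells was not run, since 1 library had no such cell.

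Between standard 5′ and 3′, where 75 passed, the count was 5 with DESeq2, 12 without the filter, 5 with at least 2 marker counts, 49 at 300 genes, 44 once per cell and 16 thinned, and 4 to 78 with 1 library left out. Between modified and standard 5′, where 6 passed, it was 0, 2, 0, 2, 0 and 0 in that order, and 0 to 6. At an unadjusted p under 0.05, DESeq2 gave 18 higher and 6 lower, and edgeR gave 13 and 1 with at least 2 marker counts, 21 and 15 once per cell, 11 and 5 thinned, and 79 and 11 without the standard 5′ replicate 2 library. Between modified 5′ and 3′, where 66 passed, it was 3, 7, 2, 28, 38 and 16, and 16 to 57. Where a library was left out, the lone library of its protocol was assumed to vary like the others. The cause of these shifts was not tested. Hmgb2 between the 5′ protocols turned to 0.13 after thinning (edgeR adjusted p = 0.984).

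With the replicate block 74, 5 and 73 genes passed in the 3 protocol contrasts. The block lowered the spread between libraries fitted by edgeR (biological coefficient of variation) from 0.212 to 0.147. Correlations of replicate differences over 820 genes were 0.0656, 0.158 and 0.0439. They come from sums as low as 6792 counts and cannot decide whether same-numbered libraries shared more than a number.

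The share of modified minus standard 5′ libraries turned from -0.731 to 0.165 points with the rule after thinning and to 0.287 with at least 2 marker counts, and ran from -2.18 to 0.717 with 1 library left out. Modified 5′ minus 3′ ran from -0.227 to 2.54 and standard 5′ minus 3′ from 0.441 to 3.34. The Cd4 difference was 5.65 points without thinning and 2.5 to 4.23 with 1 library left out. Depth limits every single-cell share here, since most cells held 1 marker count.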

Other observations

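Receptor variable segments were sparse in the marker-positive cells. Trbv segments gave 50 counts from 18 segments in 46 cells, and Trbv13-2 took 30.0% of them, against 29.5% of 200 counts in marker-negative cells and 30.8% of 39 counts in regulatory cells. The next segment, Trbv12-2, took 10.0%, 10.5% and 10.3%. Trav segments gave 46 counts from 31 segments in 40 cells. The constant genes were commoner, with a Trbc count in 313 and a Trac count in 195 of the 359 cells. Segments are near-identical in places, so the split of counts between them is uncertain.

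Interferon-stimulated genes gave 1 call of 12 against marker-negative cells. Ifi27l2a was higher in 6 of 6 libraries (log2 0.48 ± 0.13, edgeR adjusted p = 0.0317). Of 20 genes of T cell receptor signalling, 0 passed by edgeR or DESeq2. At an unadjusted p under 0.05, edgeR gave 5 and DESeq2 1.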
